A study of Gallus gallus with 18 samples.

Results

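The region described here is the 5′ end of zone III of the chicken alpha-globin locus, the stretch of chromosome 14 where a long gene desert gives way to gene-rich DNA. It was chosen by position alone, as 210 consecutive 1-kb bins between positions 11780001 and 11990000 of the galGal4 build, out of 1003047 1-kb bins in the coverage tracks. RNA was measured in 3 cell types with 2 libraries each, which the study describes as independent biological replicates. HD3dif cells are HD3 cells driven into terminal erythroid differentiation and hemoglobin production by 14 h at 42 °C with 20 µM of the kinase inhibitor iso-H-7 and 10 mM HEPES. HD3pr cells are the same line left proliferating at 37 °C, an erythroblast line transformed by avian erythroblastosis virus that goes back to 1 clone (A6 of LSCC). DT40 cells, also kept at 37 °C, are a lymphoid line from a bursal lymphoma induced by avian leukosis virus. HD3dif and HD3pr therefore differ in drug, buffer, temperature and gas phase (air in place of added CO2) at once, and DT40 differs from both in lineage and transforming virus.

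Gene deserts are long intervals without annotated protein-coding genes, and in most cells they give little stable RNA. Sequencing of total RNA after removal of ribosomal RNA picks up introns and unprocessed transcripts as well as exons, so a transcribed gene can appear as a broad plateau with exonic peaks on it. In the tracks used here, bases that spliced or paired reads span also appear to be counted. The level of a plateau is therefore not by itself a measure of intronic RNA. In the study's map, and in the RefSeq gene order of the GRCg7b assembly, the genes between the desert and the globin genes include GSG1L, which encodes an auxiliary subunit of AMPA receptors, KATNIP, which encodes a microtubule-associated ciliary protein, and GTF3C1, which encodes the largest subunit of the RNA polymerase III factor TFIIIC. No annotation of the galGal4 build was used here, so bins are given by position and no bin is assigned to a gene.

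The coverage level of a bin is its covered bases per base, for every 1e+09 covered bases in the library. A second measure counted the upward steps of each track, called read starts, and scaled them per kb and per 1e+06 read starts of the library. A read that begins where another ends adds no step, so the count can fall short of the reads, more so at high depth. The libraries held 18255236189 to 27950289034 covered bases and 41738050 to 60357500 read starts. Covered bases per read start were 388 and 367 in HD3dif libraries, 496 and 512 in HD3pr libraries, and 573 and 592 in DT40 libraries, so the scale of the coverage level moved with cell type. Reads of HBZ, an embryonic alpha-type globin gene, numbered 1000 and 1163 in HD3dif, 180 and 133 in HD3pr, and 0 and 0 in DT40, which allows up to 3 reads. Names were paired with identifiers of the count files only for a few genes that the study lists for its region. HBZ was the only erythroid or lymphoid marker among them.

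Against all windows of its size in the genome, the region as a whole was not low in coverage. Its mean level over the 6 libraries was 0.932, against a mean of 0.995 and a median of 0.343 over all 4760 windows of 210 kb, and it stood above 67.3% of them. The study calls the 5′ segment of zone III poorly transcribed. Zone III 3′ of the region had higher mean levels, of 3.78 in HD3dif, 1.77 in HD3pr and 1.64 in DT40, against 1.02, 1.03 and 0.751 in the region. The low coverage lay in the region's first 90 kb. A single block of 111 kb that began 99 kb into the region held 98.4% of the coverage, where a block joins bins with a mean level of at least 0.2. Coverage first reached a level of 0.1 over 10 kb at 89 and 83 kb from the region's start in HD3dif, at 90 and 91 kb in HD3pr, and at 92 and 92 kb in DT40. At this level the 6 libraries were within 9 kb of each other. At a level of 0.05 they were not, at 58 and 55 kb in HD3dif, 50 and 78 kb in HD3pr, and 91 and 31 kb in DT40. The point by which 50% of the region's coverage had accumulated lay at 163 and 165 kb in HD3dif, 168 and 168 kb in HD3pr, and 169 and 170 kb in DT40. Correlations of log2 levels over the 210 bins, which share depth and base composition within a library, were 0.961 to 0.968 between libraries of 1 cell type and 0.936 to 0.964 between cell types.

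**Figure D1:**
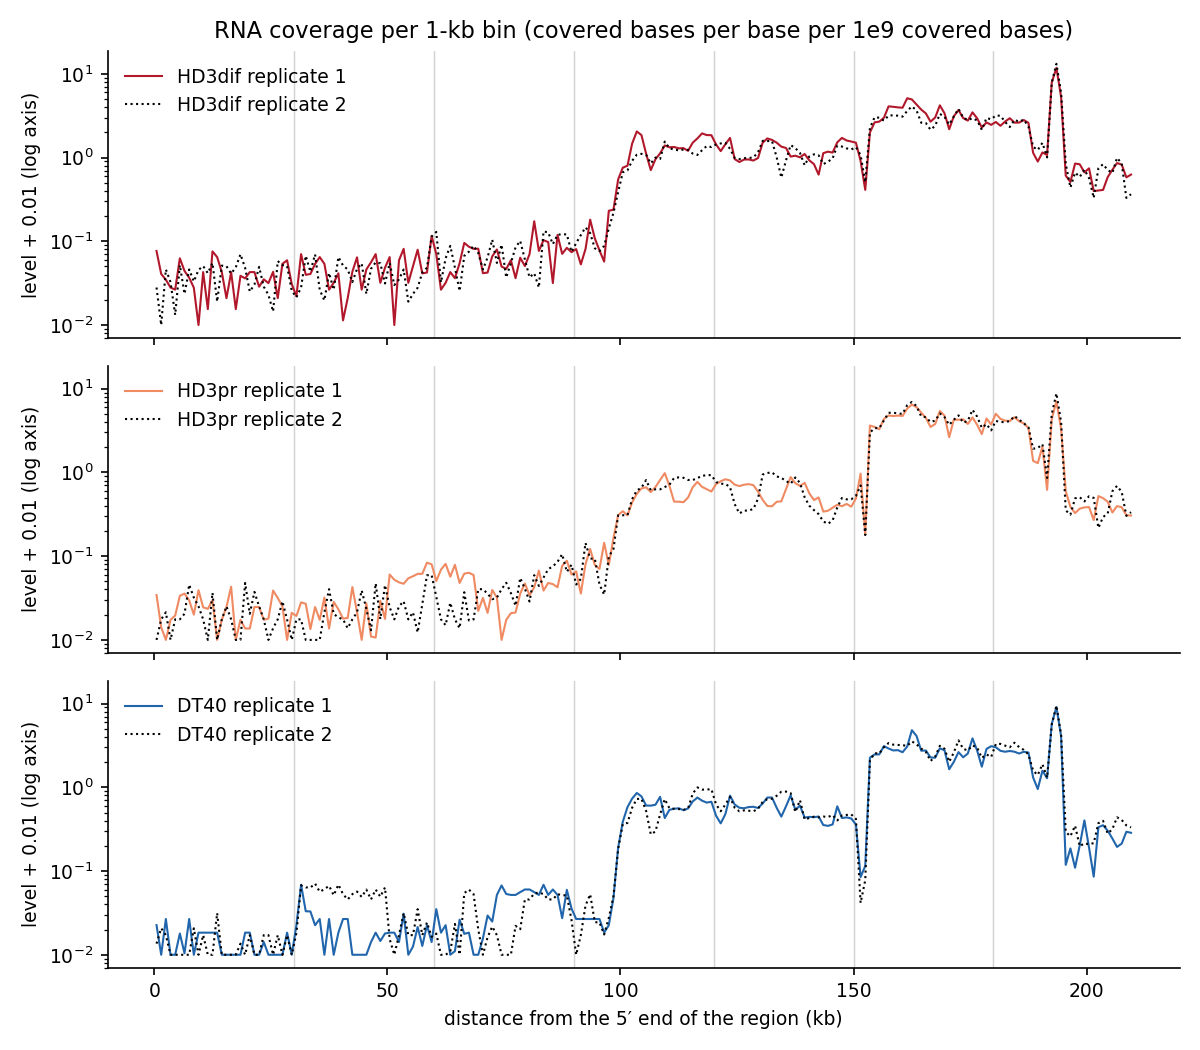
Coverage level + 0.01 (log axis) of the 210 bins of 1 kb against distance from the 5′ end of the region in kb, in a panel each for HD3dif, HD3pr and DT40, with a coloured line for replicate 1, a dotted line for replicate 2 and grey lines every 30 kb. All 6 libraries are low over the first 90 kb, climb to a first plateau near 100 kb and to a second at 153 kb, and peak at 193 kb.

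Averaged over 210 kb and scaled by total covered bases, coverage was close in HD3dif and HD3pr and lower in DT40. The region had levels of 1.05 and 0.989 in HD3dif, 1.00 and 1.05 in HD3pr, and 0.730 and 0.772 in DT40. The HD3dif and HD3pr libraries overlapped, and both DT40 libraries were below all 4. In read starts the region held 8783 and 10170 in HD3dif, 9763 and 9767 in HD3pr, and 6416 and 7675 in DT40. In limma over all 210-kb windows, the log2 difference of HD3dif from HD3pr was -0.01 (SE 0.06, adjusted p = 0.923). The log2 differences from DT40 were 0.44 for HD3dif (SE 0.06, adjusted p = 0.000351) and 0.44 for HD3pr (SE 0.06, adjusted p = 0.000385), both under the fold limit. A call required an adjusted p under 0.05 and a log2 difference beyond 0.6. Another library scale moves every bin by the same amount. Scaling by TMM-adjusted gene counts added -0.23, -0.07 and 0.16 to the log2 differences of HD3dif from HD3pr, HD3dif from DT40 and HD3pr from DT40, and scaling by total read starts added -0.42, -0.63 and -0.21. On these scales the region was lower in HD3dif than in HD3pr, at -0.24 (limma adjusted p = 0.00427) and -0.42 (adjusted p = 0.00264), both under the fold limit. The difference of HD3dif from DT40 turned negative, at -0.18, on the second of these scales, and that of HD3pr from DT40 passed the fold limit, at 0.61, on the first.

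On either side of the region, the difference between HD3dif and HD3pr was far larger. By the study's map, the next 210 kb of zone III hold the alpha-globin domain itself, and the desert contains a predicted homologue of RBFOX1. The last 210 kb of the desert had levels of 0.277 and 0.289 in HD3dif, 0.0303 and 0.0304 in HD3pr, and 0.00341 and 0.00358 in DT40. The next 210 kb of zone III had levels of 5.85 and 5.77 in HD3dif, 1.24 and 1.30 in HD3pr, and 0.959 and 0.979 in DT40. In both windows the HD3dif libraries stood above all others. The window before the region was higher in HD3dif than in HD3pr by 2.86 on the log2 scale (SE 0.08). It passed the filter, a mean level of at least 0.05, only through its HD3dif values. No p-value is therefore given for it. The window after the region was higher by 2.19 (SE 0.04, limma adjusted p = 1.37e-06), where 36.7% of all 210-kb windows were called. Against DT40, HD3dif was higher by 4.44 before the region and 2.57 after it, where 64.1% of windows were called. HD3pr was higher than DT40 by 1.58 before the region, and by 0.39 after it, under the fold limit, where 50.7% of windows were called. These differences are on the log2 scale of level + 0.01, which understates those of the desert, since both DT40 values lie under 0.01.

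**Figure D2:**
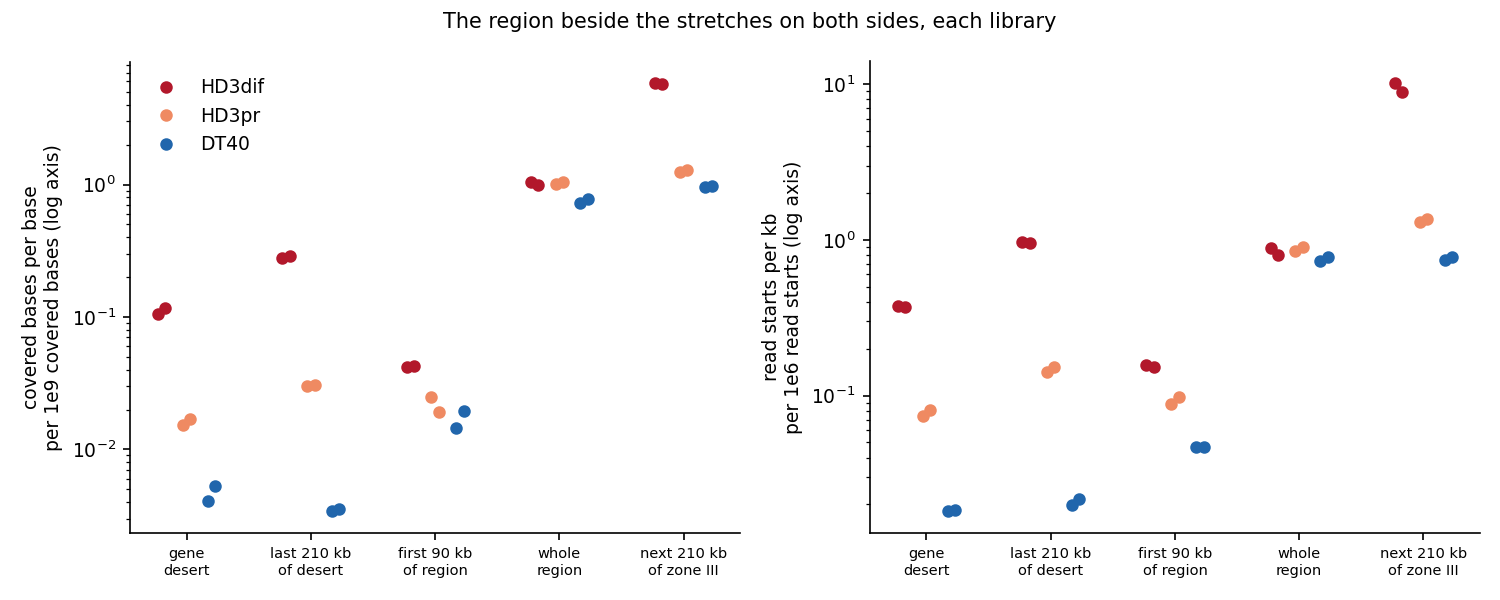
Coverage level (left) and scaled read starts (right), both on log axes, of the whole desert, its last 210 kb, the first 90 kb of the region, the whole region and the next 210 kb of zone III, with a point for each library and HD3dif left of HD3pr and DT40. In the windows on both sides the HD3dif points stand far above those of HD3pr, while the points of the 2 groups overlap for the region.

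The step between neighbouring windows compares them within a library, and this comparison was added after the levels had been seen. It was taken on log2(level + 0.01), so it depends on the library's scale where a level is near 0.01 or below. The added 0.01 shortened the step into the region most in DT40, with desert levels of 0.00341 and 0.00358. Differences of that step from DT40 are therefore understated. The log2 step from the last 210 kb of the desert into the region was 1.89 and 1.74 in HD3dif, 4.65 and 4.71 in HD3pr, and 5.79 and 5.85 in DT40. The step from the region into the next 210 kb was 2.46 and 2.53 in HD3dif, 0.31 and 0.30 in HD3pr, and 0.39 and 0.34 in DT40. Between these means of 210 kb, most of the increase thus lay in the step into the region in HD3pr and DT40. In HD3dif it was split over both steps. The steps do not place a climb at the border itself, since the first 90 kb of the region were low in all libraries. The step into the region was smaller in HD3dif than in HD3pr by 2.87 (difference -2.87, SE 0.09). Its desert window passed the filter on low levels only through HD3dif values. No p-value is therefore given for this step, and its calls are given no weight. The step out of the region was larger by 2.19 (SE 0.06, limma adjusted p = 2.14e-05), where 44.2% of all such steps between 210-kb windows were called. Against DT40 the HD3dif steps differed by -4.00 and 2.13, where 67.9% of steps were called. The HD3pr steps differed from those of DT40 by -1.14 and -0.06, where 55.9% were called and the second of these was not.

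Read starts drew the border differently in HD3dif. The region had 0.888 and 0.802 scaled read starts in HD3dif, 0.850 and 0.903 in HD3pr, and 0.732 and 0.774 in DT40. The last 210 kb of the desert had 0.967 and 0.958 in HD3dif, 0.142 and 0.152 in HD3pr, and 0.0199 and 0.0217 in DT40. By this count the end of the desert gave more read starts per kb than the region in both HD3dif libraries, and fewer in the other 4. That order was not tested, and the count can fall short more at the higher depth of the region. Covered bases per read start were 460 and 453 in the region against 111 and 111 in the last 210 kb of the desert in HD3dif. They were 585 and 595 against 106 and 102 in HD3pr, and 571 and 590 against 98.2 and 97.6 in DT40. Differences of the step into the region kept their sign by read starts, at -2.41, -3.68 and -1.27 for HD3dif from HD3pr, HD3dif from DT40 and HD3pr from DT40. The pseudocount of 0.05 lay above both DT40 values of the desert, so the differences from DT40 are understated here too. The step out of the region gave 2.84, 3.40 and 0.57, the last with a sign opposite to that of coverage.

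The first 90 kb of the region were closest to the desert. They had levels of 0.0417 and 0.0427 in HD3dif, 0.0250 and 0.0192 in HD3pr, and 0.0144 and 0.0196 in DT40, from 671 and 831, 432 and 456, and 176 and 200 read starts. HD3dif libraries were above all others, while 1 HD3pr library fell below the higher DT40 library. Divided by the level of the whole desert (10130001 to 11780000), these values gave ratios of 0.394 and 0.364 in HD3dif, 1.64 and 1.13 in HD3pr, and 3.55 and 3.69 in DT40. The first 90 kb were thus above the mean of the whole desert in HD3pr and DT40 and below it in HD3dif, without overlap between cell types, and the ratios of read starts per kb, at 0.418 and 0.410, 1.18 and 1.22, and 2.60 and 2.57, gave the same order. The adjacent last 90 kb of the desert had levels of 0.158 and 0.162 in HD3dif, 0.0186 and 0.0194 in HD3pr, and 0.00395 and 0.00445 in DT40, so against them the first 90 kb were lower in HD3dif, overlapped in HD3pr and were higher in DT40. Against the last 210 kb of the desert, the first 90 kb were lower in both HD3pr libraries too. No test was made of these ratios, which were computed after the levels had been seen.

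None of the first 3 bins of 30 kb reached the mean level of 0.05 needed for a test, so 4 of the 7 were tested. The bin at 0 to 30 kb had levels of 0.0291 and 0.0288 in HD3dif, 0.0131 and 0.0106 in HD3pr, and 0.00419 and 0.00334 in DT40. The bin at 30 to 60 kb had 0.0380 and 0.0331 in HD3dif, 0.0247 and 0.0142 in HD3pr, and 0.0102 and 0.0342 in DT40. In that second bin the higher DT40 library had 70.7% of its bases covered with 104 read starts, and the other 18.1% with 79, so its high value came with long covered stretches rather than with many more starts. The bin at 60 to 90 kb had 0.0581 and 0.0661 in HD3dif, 0.0371 and 0.0330 in HD3pr, and 0.0288 and 0.0211 in DT40.

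**Figure D3:**
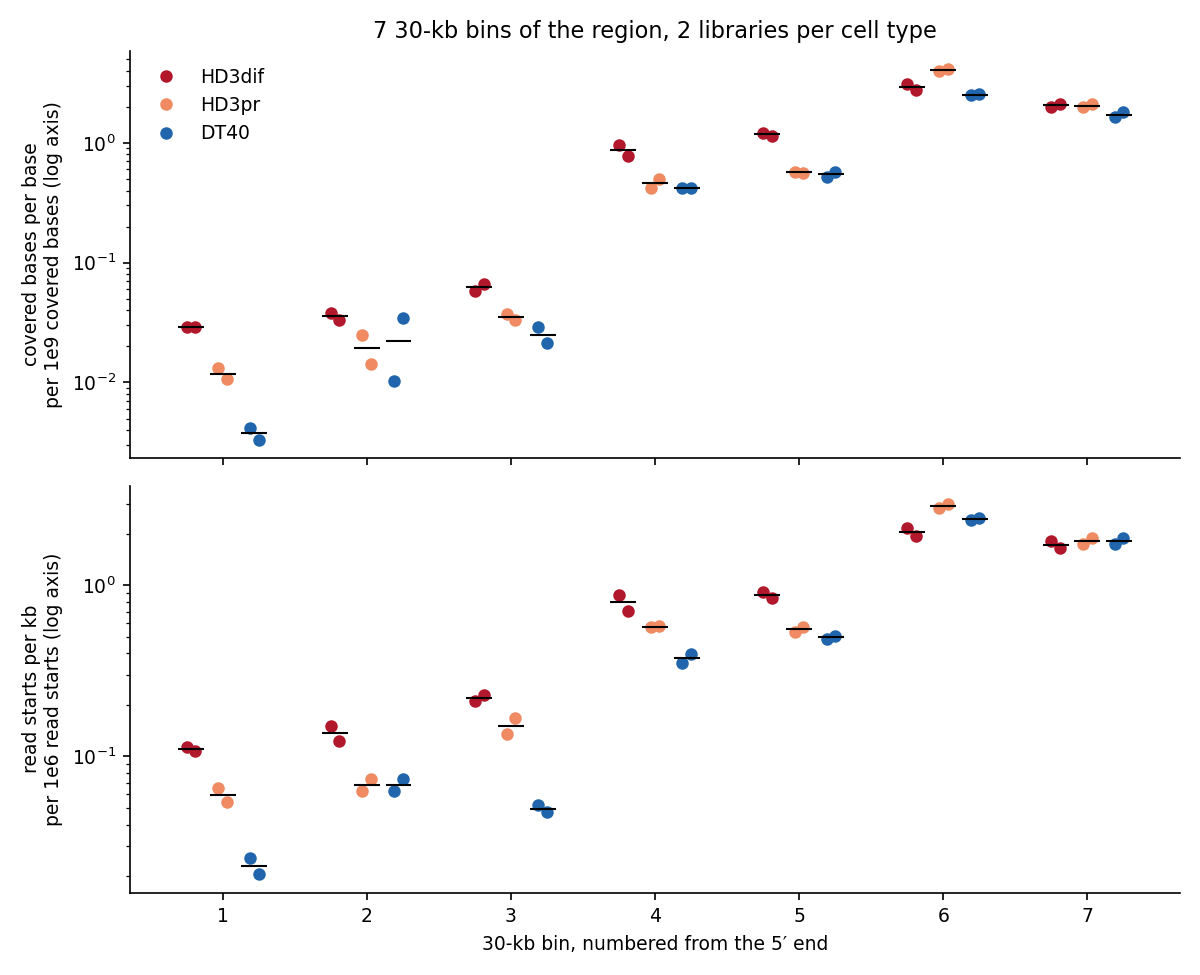
Coverage level (top) and scaled read starts (bottom), both on log axes, of the 7 bins of 30 kb numbered from the 5′ end, with a point for each library, a bar at the mean of 2, and HD3dif left of HD3pr and DT40. By both measures HD3dif lies highest in bins 1 and 3, at low levels, and in bins 4 and 5, which are the bins at 90 to 150 kb. HD3pr lies highest in bin 6, at 150 to 180 kb.

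The 2 bins between 90 and 150 kb were higher in HD3dif than in HD3pr. The bin at 90 to 120 kb had levels of 0.962 and 0.782 in HD3dif, 0.424 and 0.500 in HD3pr, and 0.423 and 0.421 in DT40. The bin at 120 to 150 kb had 1.22 and 1.15 in HD3dif, 0.568 and 0.563 in HD3pr, and 0.523 and 0.569 in DT40. In both bins the HD3dif libraries were the 2 highest, and in the second both HD3pr libraries fell between those of DT40. The HD3dif level was higher than that of HD3pr by 0.90 on the log2 scale at 90 to 120 kb (SE 0.14, limma adjusted p = 0.00298) and by 1.05 at 120 to 150 kb (SE 0.08, adjusted p = 0.000273). These were the only 2 of the 4 tested bins called in this comparison, both higher, where 46.1% of all 14911 tested bins of 30 kb were called and their median log2 difference was 0.18. Scaled by total read starts the first of these was 0.49 and no longer called, and counted as scaled read starts it was 0.43 and not called, while the second was 0.64 and 0.61 and still called. By read starts 41.1% of all tested 30-kb bins were called in this comparison.

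Against DT40 the same 2 bins were higher in HD3dif by 1.02 (SE 0.14, limma adjusted p = 0.00105) and 1.10 (SE 0.08, adjusted p = 7.92e-05), the 2 calls among 4 tested, where 71.0% of all bins were called and the median was 0.26. By scaled read starts they were higher by 0.99 and 0.76 and still called, where 68.3% of bins were, but scaled by total read starts they were 0.41 and 0.48 and neither was called. HD3pr and DT40 were close in coverage there, at 0.12 (SE 0.14, adjusted p = 0.452) and 0.05 (SE 0.08, adjusted p = 0.591), although the bin at 90 to 120 kb differed by 0.56 in read starts, under the fold limit.

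The bin at 150 to 180 kb went the other way. It had levels of 3.07 and 2.75 in HD3dif, 3.97 and 4.11 in HD3pr, and 2.49 and 2.54 in DT40. The HD3pr libraries were the 2 highest, above both HD3dif libraries, which were above both of DT40. HD3dif was lower than HD3pr by a log2 difference of -0.47 (SE 0.07, limma adjusted p = 0.00229), under the fold limit, and by -0.50 in scaled read starts. The difference was past the limit, at -0.70 and -0.89, on the scales of TMM-adjusted gene counts and of total read starts. HD3pr was higher than DT40 by 0.68 (SE 0.07, adjusted p = 0.000357), the 1 call among 4 tested, where 60.2% of all bins were called and the median was 0.10. That call was lost, at 0.25, by scaled read starts, where 58.7% of bins were called, and at 0.47 on the scale of total read starts. HD3dif exceeded DT40 by 0.21 in coverage (adjusted p = 0.0340) but not in read starts, where the difference was -0.25.

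At 180 to 210 kb the cell types were close. The levels were 2.00 and 2.11 in HD3dif, 1.97 and 2.11 in HD3pr, and 1.63 and 1.81 in DT40. HD3dif and HD3pr overlapped, with a log2 difference of 0.01 (SE 0.08, limma adjusted p = 0.940) that was -0.22, -0.41 and -0.07 on the TMM, total read start and read-start measures. Both exceeded DT40 by under 0.6, at 0.26 and 0.25, and by scaled read starts the differences were -0.07 and -0.01.

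**Figure D4:**
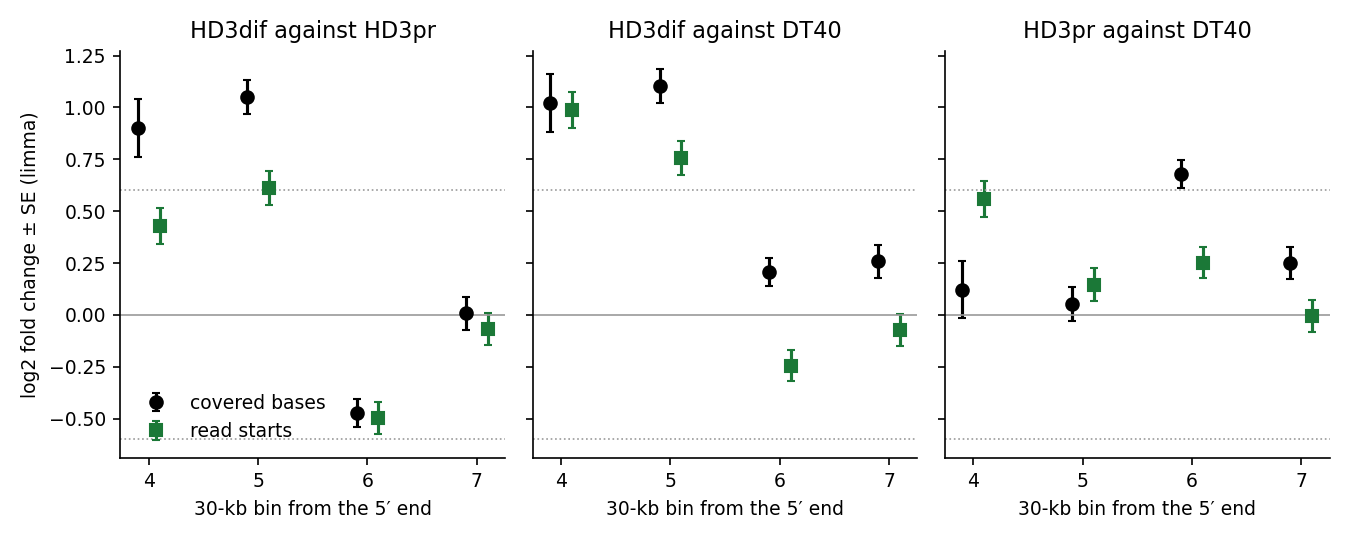
Log2 differences from limma, with bars of 1 SE, for the 4 tested bins of 30 kb (numbers 4 to 7 from the 5′ end) by coverage (circles) and read starts (squares), in a panel for each comparison, with dotted lines at the fold limit of 0.6. Bins 4 and 5 lie near 1 by coverage in HD3dif against HD3pr and against DT40, and bin 6 lies below 0 in HD3dif against HD3pr by both measures.

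From HD3pr to HD3dif the lower bin at 120 to 150 kb rose and its higher neighbour at 150 to 180 kb fell, so their levels moved closer. Their step, added after the levels had been seen, compares these 2 bins within a library. The log2 step up from the first to the second was 1.33 and 1.25 in HD3dif, 2.78 and 2.85 in HD3pr, and 2.23 and 2.14 in DT40. The 3 cell types did not overlap, with the smallest step in HD3dif and the largest in HD3pr. The HD3dif step was smaller than that of HD3pr (difference -1.52, SE 0.08, limma adjusted p = 0.000423, with 27.6% of all steps between 30-kb bins called) and smaller than that of DT40 (difference -0.90, adjusted p = 0.00059, with 43.1% called). The HD3pr step was larger than that of DT40 by 0.63 (adjusted p = 0.0028, with 34.1% called), a call lost without DT40 replicate 2, at 0.58, or without HD3pr replicate 2, at 0.60. By read starts the 3 differences were -1.11, -1.003 and 0.11.

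At 1-kb resolution the last 113 kb fell into a few stretches, whose limits were read off the profile after the values had been seen. A first plateau of 50 kb from 101 kb had levels of 1.29 and 1.14 in HD3dif, 0.577 and 0.624 in HD3pr, and 0.561 and 0.588 in DT40. A second plateau of 35 kb from 153 kb had 3.16 and 2.90 in HD3dif, 4.31 and 4.41 in HD3pr, and 2.73 and 2.86 in DT40. The HD3dif libraries were the highest on the first plateau, and the HD3pr libraries on the second. A peak of 3 kb from 192 kb had 8.31 and 8.97 in HD3dif, 4.90 and 5.92 in HD3pr, and 6.30 and 6.43 in DT40, so that HD3pr was lowest there. A tail of 15 kb behind the peak had 0.631 and 0.631 in HD3dif, 0.384 and 0.421 in HD3pr, and 0.224 and 0.299 in DT40, without overlap between cell types. By scaled read starts, DT40 (2.64 and 2.78) was above HD3dif (2.33 and 2.06) on the second plateau, with HD3pr (3.11 and 3.30) still highest. In the peak DT40 (4.68 and 5.28) overlapped HD3dif (4.73 and 4.50), with HD3pr (3.51 and 3.93) still lowest.

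Of the 210 bins of 1 kb, 124 passed the filter on low levels and were tested within the fit over 371568 bins. Some of those in the first 90 kb passed only through their HD3dif values, and 1 call of HD3dif over HD3pr lay there. In HD3dif against HD3pr, 36 were higher and 13 lower in limma, where 41.3% of all bins were called (28.4% higher and 12.8% lower). The median log2 difference was 0.62 over the 124 bins and 0.31 over all tested bins. With any 1 of the 6 libraries left out, 25 to 31 bins were called in all. The calls were split by position. The first plateau held 30 of the higher ones and 0 of the lower, while the second plateau held 12 of the lower and 0 of the higher, and the 3 bins of the peak were all higher. By scaled read starts, 109 bins were tested and the calls were 14 higher and 13 lower, with 41.1% of all bins called (28.7% higher and 12.4% lower). Of these calls, 11 of the higher lay on the first plateau, 13 of the lower on the second, and 0 in the peak. On the scale of TMM-adjusted gene counts the split was 22 higher and 32 lower, and on that of total read starts 12 and 38. Both scales shift every bin of the genome, and no share of all bins called was computed on them.

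Against DT40, HD3dif had 61 bins higher and 0 lower in limma, where 70.2% of all bins were called (46.2% higher and 23.9% lower). At an unadjusted p under 0.05, 73 were higher and 0 lower, a limit at which no share of all bins was computed. The median log2 difference was 0.87 over the 124 bins and 0.61 over all tested bins. The first plateau held 36 of the calls and the tail 10. The count was 32 without DT40 replicate 1, 40 without DT40 replicate 2 and 38 without HD3dif replicate 1. By scaled read starts the calls were 42 higher and 4 lower, with 69.2% of all bins called (48.1% higher and 21.1% lower). On the scale of total read starts they were 19 higher and 15 lower, with no share of all bins computed. HD3pr had 34 bins higher and 1 lower than DT40, where 57.7% were called (35.4% higher and 22.4% lower), and 20 of the higher lay on the second plateau. The median was 0.45, against 0.23 over all tested bins, and the count was 19 without DT40 replicate 1 and 22 without HD3pr replicate 2. By scaled read starts these were 13 and 1, with 59.7% of all bins called (38.2% higher and 21.5% lower) and 1 of the 13 on the second plateau.

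**Figure D5:**
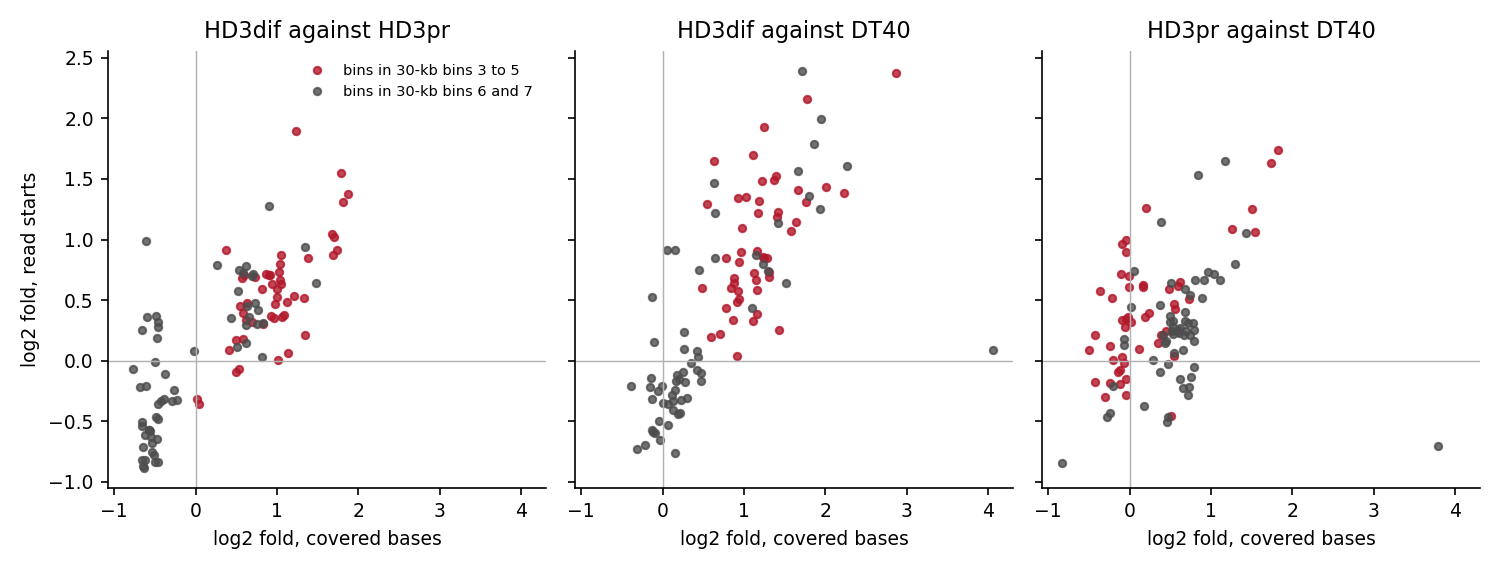
Log2 differences of the 1-kb bins tested in both measures, by coverage (horizontal axis) and by read starts (vertical axis), in a panel for each comparison, with bins of the 30-kb bins 3 to 5 in red and those of bins 6 and 7 in grey. The bin at 151 kb stands alone at the far right of both comparisons with DT40, at 4.06 and 3.79 by coverage.

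The highest 1-kb bin was the same in all 6 libraries, at 193 kb (chromosome 14, 11973001 to 11974000). It had levels of 11.8 and 13.2 in HD3dif, 7.05 and 8.79 in HD3pr, and 9.10 and 9.45 in DT40, from 151 and 178, 113 and 142, and 122 and 170 read starts. HD3dif libraries were the highest and HD3pr the lowest, with no overlap. The coverage of HD3dif was higher than that of HD3pr by 0.66 (SE 0.13, limma adjusted p = 0.00922), and read starts by 0.36, which was not called.

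The largest rises of HD3dif over HD3pr fell close together on the first plateau. The bin at 146 kb (11926001 to 11927000) had levels of 1.51 and 1.38 in HD3dif, 0.401 and 0.371 in HD3pr, and 0.583 and 0.392 in DT40, with 88 and 87, 30 and 34, and 35 and 32 read starts. HD3dif stood apart in both measures, by a log2 difference from HD3pr of 1.87 in coverage (SE 0.24, limma adjusted p = 0.00259) and 1.38 in read starts. Bins at 144 and 147 kb rose by 1.81 and 1.79. The largest falls of HD3dif from HD3pr were smaller, at -0.77, -0.68 and -0.66 for the bins at 184, 190 and 175 kb, and none of these 3 was called by read starts.

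The bin at 151 kb (11931001 to 11932000), between the plateaus, had the largest coverage difference from DT40 in both HD3 states. It had levels of 0.902 and 1.06 in HD3dif, 0.957 and 0.690 in HD3pr, and 0.0749 and 0.0316 in DT40, but only 9 and 30, 9 and 8, and 20 and 8 read starts. Covered bases per read start were thus 1829 and 784 in HD3dif, 2890 and 2274 in HD3pr, and 89.5 and 110 in DT40. The coverage differences from DT40 were 4.06 for HD3dif (SE 0.39, limma adjusted p = 0.000229) and 3.79 for HD3pr (SE 0.39, adjusted p = 0.000411), while those in read starts were 0.09 and -0.70, neither called. In 3 of the 4 HD3 libraries that is more than the length of the bin for each read start, and in DT40 it is about the length of a read. Isolated stretches of depth 1 were 100 bases long in 86.3 to 96.9% of cases, whereas the longest run of constant depth in the region was 581 to 3755 bases, depending on the library.

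The coverage of the low stretch rested on few reads. The bin at 59 kb (11839001 to 11840000) had levels of 0.106 and 0.104 in HD3dif, 0.0699 and 0.0495 in HD3pr, and 0.00418 and 0.00640 in DT40, from 22 and 24, 10 and 12, and 1 and 2 read starts. The cell types did not overlap, with log2 differences from DT40 of 2.91 for HD3dif and 2.18 for HD3pr. The mean level of this bin over the 6 libraries, 0.0566, passed the limit of 0.05 only through its HD3 values. No p-value is therefore given for it. By read starts the bin was not tested. The bin at 97 kb, where coverage climbed, was higher in HD3dif than in DT40 by 2.87 in coverage and 2.37 in read starts. It passed the limits of both measures only through its HD3dif values, so its calls are given no weight. The bin at 96 kb had levels of 0.134 and 0.0247 in HD3pr and 0.00837 and 0.00748 in DT40. Its log2 difference of HD3pr from DT40 was 1.98, and 0.95 without HD3pr replicate 1. The mean of this bin over the 6 libraries, 0.0501, would not have passed the limit of 0.05 without that replicate. Its call in coverage is therefore given no weight. By read starts the bin was not tested. The only 1-kb bin called lower in HD3pr than in DT40 was at 191 kb, by -0.83 in coverage (SE 0.20, adjusted p = 0.0144) and -0.84 in read starts.

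Gene counts gave a separate view of 2 genes of the transition. KATNIP (ENSGALG00000000687) had 54.4 and 53.0 counts per 1e+06 counts of the library (CPM, TMM-adjusted) in HD3dif, 33.5 and 33.2 in HD3pr, and 24.1 and 25.5 in DT40. GTF3C1 (ENSGALG00000007387) had 152 and 146 CPM in HD3dif, 244 and 245 in HD3pr, and 147 and 146 in DT40. KATNIP was highest in HD3dif and GTF3C1 in HD3pr, with no overlap of those groups with the others. In edgeR, KATNIP rose in HD3dif over HD3pr by 0.72 on the log2 scale (SE 0.07, adjusted p = 2.65e-08) and GTF3C1 fell (difference -0.69, SE 0.04, adjusted p = 2.3e-11), where 30.6% of 10898 genes were called at an adjusted p under 1e-07 and a log2 fold beyond 0.6. The KATNIP call was lost, with differences of 0.70 to 0.74 and adjusted p of 2.69e-06 to 4.72e-06, when any 1 of the 4 HD3 libraries was left out. Scaled by library totals alone, the GTF3C1 difference was -0.44 and no longer called. Against DT40, KATNIP was higher in HD3dif by 1.20 (adjusted p = 5.21e-12), where 54.4% of genes were called, and GTF3C1 was higher in HD3pr by 0.80 (adjusted p = 1.13e-12), where 41.4% were called. The other 2 differences from DT40, 0.11 for GTF3C1 in HD3dif and 0.48 for KATNIP in HD3pr, were not called. These libraries are the ones behind the coverage tracks, so the counts are no independent measurement of the same RNA. GSG1L, and RBFOX1 on the desert side, could not be paired with an identifier and their counts were not analysed here. Another pair of genes, farther 3′ in the study's map, was also tested. RHBDF1, which encodes an inactive rhomboid protein, was higher in HD3dif than in DT40 by 1.42 and than in HD3pr by 0.63. The second passed the fold limit but was not called, at an edgeR adjusted p of 0.000177 against the limit of 1e-07. The study reports RHBDF1 as upregulated in differentiated HD3 cells. SNRNP25, which encodes a protein of the minor spliceosome, was called in no comparison.

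Levels come from whole cultures, in which fewer cells with a transcript and less of it per cell cannot be told apart. With 2 libraries a group and 3 residual degrees of freedom, limma drew much of its error estimate from the other windows, and the part of covered bases per read start in each difference was not tested.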

How the data were processed

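The 6 libraries were made from total RNA after depletion of ribosomal RNA, with a stranded kit. The authors mapped the reads to galGal4 with TopHat, counted reads per gene with HTSeq and computed coverage with bedtools. The submitters' processing notes list TopHat2 2.0.12, Bowtie2 2.2.1 and bedtools 2.16.2 with no role. The deposited tracks hold coverage signal, unscaled, as intervals with a depth. They do not separate strands here, and bases that spliced or paired reads span appear to be counted, so levels per covered base and per read start were both computed. The deposited gene files hold raw counts, 33.0 to 55.4% of which fell on genes. The rows naming no gene were left out.

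Levels were summed over 1-kb, 30-kb and 210-kb windows of the whole genome and divided by the library's covered bases. The 30-kb and 210-kb windows began at position 20001 of each chromosome, and the 1-kb bins at its first base. Levels were tested as log2(level + 0.01) with limma 3.58.1 (trend, all 6 libraries, no block), for windows with a mean level of at least 0.05. Calls needed a Benjamini-Hochberg adjusted p under 0.05 over all windows and a log2 difference beyond 0.6. Read starts used a pseudocount of 0.05 and a minimum of 0.25. For genes with a CPM above 1 in at least 2 libraries, counts entered the quasi-likelihood test of edgeR 4.0.16 after TMM scaling. DESeq2 1.42.0 served as alternative, and R was 4.3.3. Scripts were tested on simulated data. Identifiers were paired with names through the study's listed expression values, within a tolerance of 1 read or 0.3%, at a minimum of 100 reads.

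The members, gene lists and tests were chosen with earlier results of these data known. Bins named at 1 kb were the 3 highest of each cell type and, in each comparison, the 3 largest rises and falls among called bins whose libraries do not overlap. Replicate pairs differed by more than counting noise, at 8.33, 4.39 and 13.5 chi-square units per gene in HD3dif, HD3pr and DT40. The chromosome conformation files were not used here.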

Additional observations from a re-analysis of the deposited data

How the results depend on the processing

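Leaving out 1 library at a time gave region-wide log2 differences of -0.051 to 0.038 in HD3dif against HD3pr, which turned positive without HD3pr replicate 2 (0.028) or HD3dif replicate 2 (0.038), of 0.39 to 0.48 in HD3dif against DT40, and of 0.40 to 0.48 in HD3pr against DT40. Counts of called 1-kb bins ranged over 25 to 31, 32 to 61 and 19 to 33 in the same order of comparisons, and gene calls over 1 to 2 in HD3dif against HD3pr, where KATNIP was lost when any 1 HD3 library was left out. Without a fold limit both region-wide differences of 0.44 from DT40 passed, as did 4 and 2 of the 30-kb bins against DT40 and 2 and 2 genes. The difference of HD3pr from DT40 passed at 0.61 with TMM-adjusted totals, and that of HD3dif from DT40 was -0.18 with total read starts. At an adjusted p under 1e-07, 0 bins of 30 kb and 0 bins of 1 kb were called in any comparison. For the counts in these settings no share of all bins or genes called was computed, so they are not read as a result about the region.

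The 30-kb counts of HD3dif against HD3pr, HD3dif against DT40 and HD3pr against DT40 were 4, 4 and 2 without a filter. In that setting 30.8, 46.8 and 35.9% of all 30-kb bins were called. The 30-kb counts were 1 by scaled read starts in the first comparison and 0 in the last, and 0 with total read starts for both comparisons with DT40. The 1-kb counts were 27 by read starts in the first and 14 in the last, 34 and 13 with total read starts in the comparisons with DT40, and 53 with TMM-adjusted totals in HD3pr against DT40. No share of all bins called was computed with total read starts or TMM-adjusted totals. Gene calls in HD3dif against HD3pr were 1 with library totals.

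Single 30-kb bins changed sign as follows. The bin at 180 to 210 kb gave -0.22 (TMM), -0.41 (total read starts), -0.067 (read starts), and -0.042 to 0.056 without 1 library, in HD3dif against HD3pr, -0.36 and -0.073 (total read starts, read starts) in HD3dif against DT40, and -0.0068 by read starts in HD3pr against DT40. The bin at 150 to 180 kb gave -0.42 and -0.25 in HD3dif against DT40 by total read starts and by read starts. In HD3pr against DT40 the bin at 90 to 120 kb gave -0.081, and that at 120 to 150 kb -0.15, with total read starts, and the other bin gave -0.0087 to 0.11 without 1 library, below 0 without DT40 replicate 1. The 1-kb bin at 151 kb gave -0.70, and the step out of the region 0.57, by read starts in HD3pr against DT40. The cause was not tested in any of these.

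The mean position where coverage first reached the level was 56.5, 64 and 61 kb in HD3dif, HD3pr and DT40 at a level of 0.05 (31 and 91 kb in the DT40 libraries), 91.5, 94 and 94 kb at 0.2, 71, 74 and 74.5 kb in windows of 30 kb, and 98.5 kb in DT40 by read starts. The position of 50% of the coverage was 162.5, 167 and 167.5 kb without the highest bin, and 168.5 kb in HD3pr by read starts. A minimum of 0.5 gave 2 blocks.

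Libraries with the same replicate number did not deviate together over genes, with correlations of -0.03, -0.06 and 0.05. With 2 libraries a group, this cannot exclude that the numbers mark a pairing. With a replicate block the 1-kb counts were 46, 60 and 34, and 1 gene was called in HD3dif against HD3pr, as KATNIP was lost at an adjusted p of 4.55e-07 in edgeR. No share of all bins or genes called was computed with this block. Differences in the step out of the region kept their calls without any 1 library, and those in the step into it kept their sign. Depth limits the first 90 kb, with 176 to 831 read starts a library.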
